A study of Homo sapiens with 8 samples.

Results

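The genes described here encode the start of the integrated stress response: 8 genes, chosen by name, out of 45341 genes with a value in the tables of both experimental rounds. They are the 4 eIF2 kinases EIF2AK1, EIF2AK2, EIF2AK3 and EIF2AK4, the kinase substrate EIF2S1, the initiation factor EIF2A, the mitochondrial protease OMA1 and the phosphatase subunit PPP1R15B. All 8 were present in both tables and all 8 passed the filter on low values that left 12696 genes for testing. Their mRNA was measured by sequencing poly-A-selected RNA of the MDA-MB-231 line, human breast cancer cells that lack hormone receptors.

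The integrated stress response slows protein synthesis when a cell is under stress. Each kinase senses a different stress: EIF2AK1 (HRI) responds to haem shortage and to mitochondrial damage, EIF2AK2 (PKR) to double-stranded RNA, EIF2AK3 (PERK) to unfolded protein in the endoplasmic reticulum and EIF2AK4 (GCN2) to uncharged tRNA. All of them phosphorylate eIF2 alpha, the protein made from EIF2S1, which blocks the exchange factor eIF2B and lowers the supply of initiator tRNA while mRNAs such as ATF4 are translated more. Activity of the kinases is set by phosphorylation, which mRNA levels do not measure.

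The compounds are both triphenylphosphonium salts, a class of lipophilic cation that collects in mitochondria, and 1-SO carries an oxo group that 1-S lacks. Cells had 24 h with 10 µM compound or with the vehicle, 1% DMSO, and were then given 30 min of UV-A from 8 bulbs of 325 to 375 nm or were kept in the dark on a separate plate. Round 1, with cells at passage 8, held 1-SO UV-A, 1-SO dark, vehicle UV-A and vehicle dark. Round 2, with cells at passage 32 to 34, held 1-S UV-A, 1-S dark, vehicle UV-A and vehicle dark. Each of these was 1 library, so a compound group has n = 1 and a vehicle group n = 2, 1 per round, and compound, round and passage cannot be told apart. Plate and light cannot be told apart either.

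The libraries held 15.8 to 22.6 M counted reads. Of the markers of the cell line, 7 of 7 were at 1 FPKM or more (fragments per gene length in kilobases, scaled to library depth) in every library. Their summed level was 940 FPKM in 1-SO UV-A and 1253 in 1-SO dark, against 1216 in vehicle UV-A and 1290 in vehicle dark of round 1, and 603 in 1-S UV-A and 592 in 1-S dark, against 935 in vehicle UV-A and 895 in vehicle dark of round 2. The markers did not all move together. In 1-SO UV-A VIM had 283 FPKM, against 283 in vehicle UV-A of round 1. The other markers were lower in 1-SO UV-A than in that vehicle. CAV1 had 53.7 FPKM, against 124, KRT18 had 30.2, against 57.9, and AXL had 210, against 282. CD44 had 132 FPKM, against 197, FN1 had 25.1, against 35.4, and MSN had 206, against 237. In the 1-S libraries with UV-A and in the dark VIM had 250 and 219 FPKM, against 226 and 221 in their vehicles. The membrane protein CAV1 had 45.3 and 44.0 FPKM in these 1-S libraries, against 119 and 118 in their vehicles. The kinase AXL had 123 and 149 there, against 323 and 291. The part of these lower marker levels in the results was not tested. Oestrogen and progesterone receptor mRNA (ESR1, PGR) and CDH1 stayed under 1 FPKM in every library. ERBB2, EPCAM and GATA3, which were listed as low in this line, were above 1 FPKM in all 8. ERBB2 was the highest of them, at 23.5 to 29.2 FPKM in round 1 and 9.78 to 10.9 in round 2. EPCAM and GATA3 spanned 2.25 to 5.57 FPKM. Among 6 markers of leukocytes, endothelium, fibroblasts and liver 4 were under 1 FPKM in every library. The fibroblast collagen COL1A1 was at 6.39 and 7.09 FPKM in the 1-S libraries, against 1.45 and 1.49 in the vehicle libraries of that round. PDGFRB, the remaining marker, did not share this rise. It had 0.801 FPKM in 1-S UV-A, against 1.198 in vehicle UV-A of round 2, and 1.219 in 1-S dark, against 1.205 in vehicle dark. In bulk RNA, fewer cells and less RNA per cell cannot be told apart.

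Promoter sequences are shown for EIF2AK2, EIF2AK3 and PPP1R15B, the 3 genes of the group that were higher with 1-S in the dark. Each line gives the 250 bases before the RefSeq start site (GRCh38.p14), 5′ to 3′ on the gene's own strand. Capitals mark CCAAT and CCACG, both parts of the endoplasmic reticulum stress element, on either strand, and, on either strand, TGACG, the core of the cAMP response element, and TGATGNAA, the composite site bound by ATF4 with a C/EBP partner.
EIF2AK2, chr2:37156981-37157230, minus strand: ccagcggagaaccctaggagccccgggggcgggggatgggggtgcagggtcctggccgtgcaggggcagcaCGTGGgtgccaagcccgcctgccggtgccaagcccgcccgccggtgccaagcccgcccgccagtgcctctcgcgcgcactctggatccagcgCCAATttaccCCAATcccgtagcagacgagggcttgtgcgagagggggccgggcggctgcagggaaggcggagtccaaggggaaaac
EIF2AK3, chr2:88627465-88627714, minus strand: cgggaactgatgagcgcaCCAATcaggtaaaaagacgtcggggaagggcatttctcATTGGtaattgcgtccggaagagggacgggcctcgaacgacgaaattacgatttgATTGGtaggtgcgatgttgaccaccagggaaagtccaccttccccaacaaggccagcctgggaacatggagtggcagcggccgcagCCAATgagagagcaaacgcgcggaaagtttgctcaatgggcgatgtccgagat
PPP1R15B, chr1:204411818-204412067, minus strand: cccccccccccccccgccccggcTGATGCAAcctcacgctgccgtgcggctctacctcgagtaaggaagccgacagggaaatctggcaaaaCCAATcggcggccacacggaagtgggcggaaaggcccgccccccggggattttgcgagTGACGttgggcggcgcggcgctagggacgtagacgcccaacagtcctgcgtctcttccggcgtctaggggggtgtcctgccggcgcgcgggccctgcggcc

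The EIF2AK3 window held CCAAT 4 times, at 232 and 53 bases before the start on the gene's strand and at 194 and 139 bases on the opposite strand. EIF2AK2 held CCAAT at 87 and 77 bases before the start and CCACG at 179 bases on the opposite strand. Both windows overlap the annotated gene, which reaches to base 88627576 for EIF2AK3 and to base 37157065 for EIF2AK2. Their positions therefore hold for the RefSeq start only. PPP1R15B held TGATGNAA at 227 bases, CCAAT at 159 bases and TGACG at 101 bases before the start. CCACG was in neither the EIF2AK3 nor the PPP1R15B window. These letters are common: of 35116 human promoter windows of this length 32.0% held CCAAT, 33.5% CCACG, 21.2% TGACG and 3.14% TGATGNAA. Windows were found for 7 of the 8 genes, and CCAAT stood in 4 of the 7, CCACG in 3, TGACG in 2 and TGATGNAA in 1. The palindrome TGACGTCA, in 1.65% of all windows, was in 0 of the 7.

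EIF2AK3 (ENSG00000172071, chromosome 2, 88556741 to 88627576, GRCh38), the endoplasmic reticulum kinase, was a weakly expressed kinase gene. Its level was 6.46 FPKM in 1-SO UV-A, 3.64 in 1-SO dark, 4.46 in vehicle UV-A and 4.33 in vehicle dark of round 1. In round 2 it was 7.22 FPKM in 1-S UV-A, 7.70 in 1-S dark, 3.85 in vehicle UV-A and 4.39 in vehicle dark. Both 1-S libraries lay above both vehicle libraries of their round, and in round 1 the irradiated 1-SO library lay above both vehicles and the dark one below them. The values rest on 301 to 914 reads per library.

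EIF2AK1 (ENSG00000086232, chromosome 7, 6022244 to 6059230), the kinase that DELE1 activates after mitochondrial damage, ran the other way. It had 32.6 FPKM in 1-SO UV-A, 36.8 in 1-SO dark, 37.2 in vehicle UV-A and 36.4 in vehicle dark of round 1. Its round 2 levels were 26.5 FPKM in 1-S UV-A, 23.9 in 1-S dark, 33.5 in vehicle UV-A and 35.5 in vehicle dark. In each round the libraries with high EIF2AK3 were the lowest for EIF2AK1. Of its exonic length 9.59% overlaps AIMP2 on the opposite strand, and strand use in counting was not given in the sources used here.

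EIF2AK2 (ENSG00000055332, chromosome 2, 37099210 to 37157065), the double-stranded RNA sensor and an interferon-inducible gene, had 17.3 FPKM in 1-SO UV-A, 12.7 in 1-SO dark, 15.8 in vehicle UV-A and 12.6 in vehicle dark of round 1. In round 2 it had 17.3 FPKM in 1-S UV-A, 19.2 in 1-S dark, 12.1 in vehicle UV-A and 13.6 in vehicle dark. In round 1 the libraries separated by light, in round 2 by compound. EIF2AK4 (ENSG00000128829, chromosome 15, 39934146 to 40035591), the amino acid sensor, spanned 27.8 to 34.1 FPKM in round 1, with vehicle UV-A the highest, and 12.0 to 14.2 FPKM in round 2. Its length in the tables was 5499 bases in round 1 and 11957 bases in round 2. Lengths differed between the rounds for 7 of the 8 genes, so FPKM levels are compared only within a round.

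EIF2S1 (ENSG00000134001, chromosome 14, 67359997 to 67386516), which encodes the alpha subunit that all 4 kinases phosphorylate, was at 41.0 FPKM in 1-SO UV-A, 48.4 in 1-SO dark, 46.8 in vehicle UV-A and 48.3 in vehicle dark of round 1. It was at 27.2 FPKM in 1-S UV-A, 25.6 in 1-S dark, 33.2 in vehicle UV-A and 32.3 in vehicle dark of round 2. Within each round its level was lowest in the libraries where EIF2AK3 was highest. EIF2A (ENSG00000144895, chromosome 3, 150546678 to 150584242), despite its symbol, is not a subunit of eIF2 but a separate factor that can deliver initiator tRNA. Its level was 29.9 FPKM in 1-SO UV-A, 25.7 in 1-SO dark, 27.0 in vehicle UV-A and 24.3 in vehicle dark of round 1, and 22.5 FPKM in 1-S UV-A, 17.4 in 1-S dark, 17.6 in vehicle UV-A and 17.8 in vehicle dark of round 2. It was highest in the irradiated compound library of each round.

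PPP1R15B (ENSG00000158615, chromosome 1, 204403387 to 204411791) encodes CReP, the constitutive subunit that directs protein phosphatase 1 to eIF2 alpha and so undoes the kinases' work. Round 1 had 35.3 FPKM in 1-SO UV-A, 26.7 in 1-SO dark, 30.3 in vehicle UV-A and 26.1 in vehicle dark, and round 2 had 42.6 in 1-S UV-A, 44.6 in 1-S dark, 29.5 in vehicle UV-A and 28.4 in vehicle dark. The compound libraries of round 2 lay above their vehicles, and in round 1 the irradiated 1-SO library was the highest. OMA1 (ENSG00000162600, chromosome 1, 58415384 to 58546802), the protease that cleaves DELE1 under mitochondrial stress, was the weakest of the genes in 7 of the 8 libraries, EIF2AK3 being lower in 1-SO dark. It had 3.10 FPKM in 1-SO UV-A, 3.77 in 1-SO dark, 4.18 in vehicle UV-A and 3.03 in vehicle dark, and in round 2 it had 1.71 in 1-S UV-A, 1.13 in 1-S dark, 1.93 in vehicle UV-A and 1.78 in vehicle dark. It rests on 92 to 156 reads per library. In round 2 the counting interval of 1-S dark, 0.913 to 1.39 FPKM, lay below those of the other libraries, and in round 1 the intervals of neighbouring values overlapped.

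**Figure D1:**
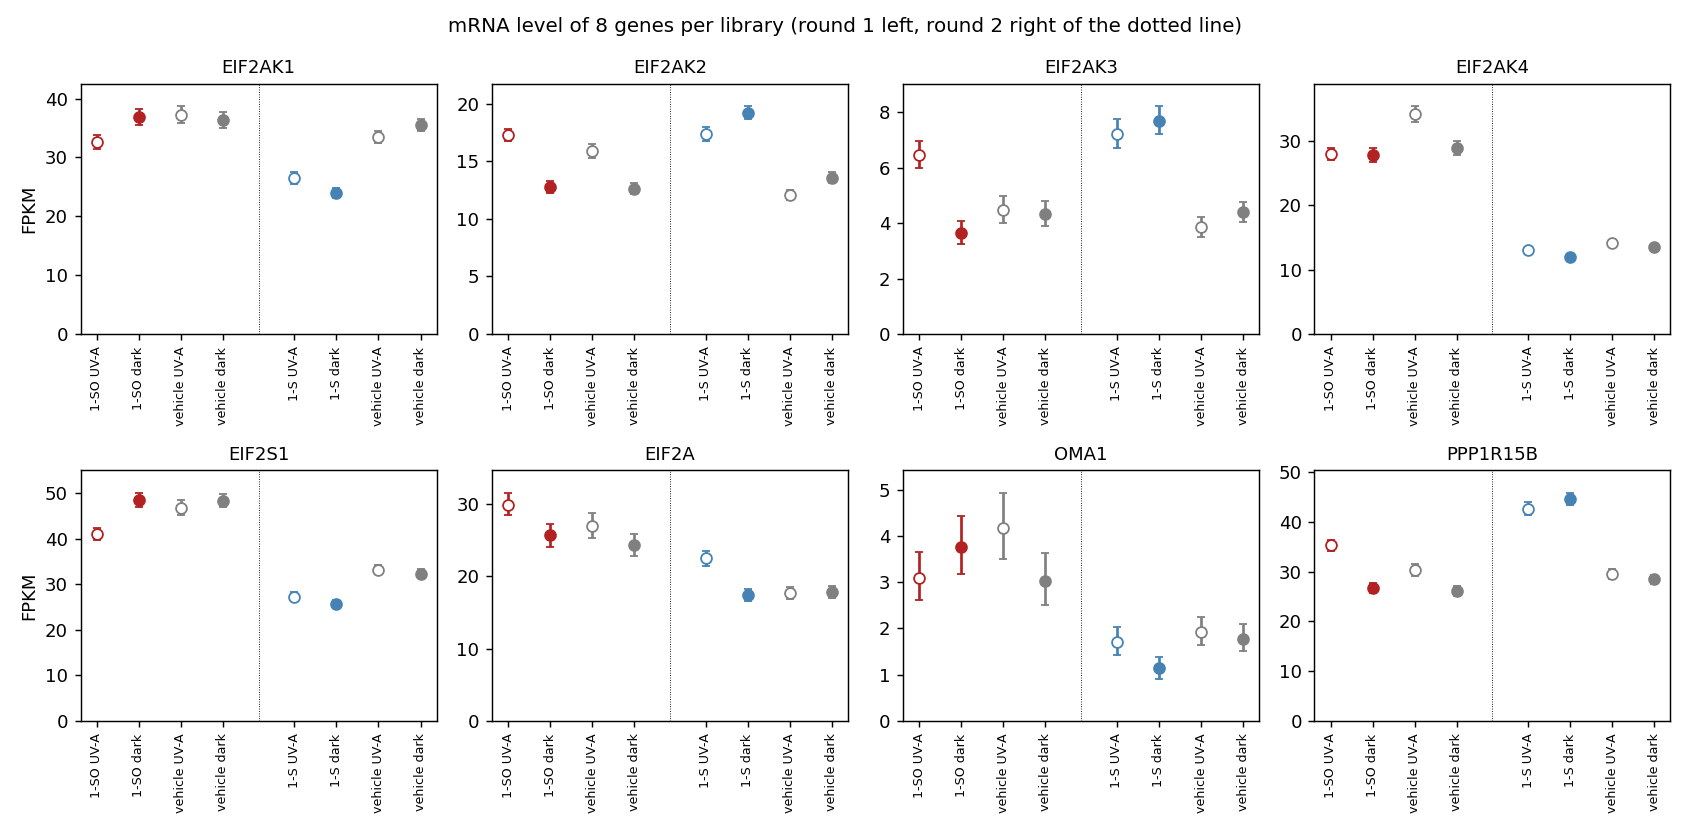
Level of each of the 8 genes in FPKM (vertical axes, from 0) in each library, with round 1 left and round 2 right of the dotted line. Red is 1-SO, blue 1-S and grey vehicle, open points are UV-A and filled points dark, and bars are 95% Poisson intervals for counting error only. EIF2AK3 stands at 7.22 and 7.70 FPKM in the 1-S libraries against 3.85 and 4.39 in the round 2 vehicles, and at 6.46 in 1-SO UV-A, against 4.46 and 4.33 in the round 1 vehicles.

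UV-A alone was examined first, in vehicle cells. None of the 8 genes passed the test, and across the transcriptome edgeR's quasi-likelihood test called 0.0%, and 348 of 12696 genes had an unadjusted p under 0.05, with 0 called by DESeq2. No gene of the group had an unadjusted p under 0.05. The fitted log2 changes over the 2 rounds ranged up to 0.26 ± 0.27 (SE) for OMA1. For EIF2AK3 the log2 change was -0.10 ± 0.18, and for EIF2AK1 it was -0.05 ± 0.13. EIF2AK2 differed in direction between the rounds, with a ratio of 1.26 (95% counting interval 1.19 to 1.33) of UV-A over dark in round 1 and 0.889 (0.845 to 0.935) in round 2. These ratios compare CPM, the reads of a gene per 1 M counted reads, of 2 libraries, and such intervals cover counting error only.

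Without light, 1-SO left the 8 genes close to vehicle. None passed the test, and 0.0% of all genes did, with 26 at an unadjusted p under 0.05 and 0 called by DESeq2. The log2 change of EIF2AK3 was -0.31 ± 0.24 and that of OMA1 was 0.23 ± 0.35. The other 6 genes were between -0.11 for EIF2AK2 and 0.04 for EIF2A. Without the round 1 vehicle dark library the EIF2AK2 value became -0.42. The widest 95% interval was that of OMA1, from -0.50 to 0.95, and that of EIF2AK1 ran from -0.38 to 0.36.

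With 1-SO and UV-A against vehicle and UV-A, 11.5% of all genes passed the test, 4.47% higher and 7.04% lower, and none of the 8 did. EIF2AK3 had the largest log2 change of the 8, at 0.49 ± 0.23 with an edgeR adjusted p of 0.177. Its CPM was 30.0 in 1-SO UV-A, against 20.7 in vehicle UV-A, a ratio of 1.45 (counting interval 1.27 to 1.66). EIF2AK4 had a log2 change of -0.34 ± 0.18, EIF2S1 one of -0.31 ± 0.18 and EIF2AK1 one of -0.26 ± 0.18. PPP1R15B was at 0.16 ± 0.18 and EIF2AK2 at 0.14 ± 0.18, which became 0.47 without the round 1 vehicle UV-A library. The median absolute log2 change was 0.29 over the 8 genes and 0.30 over all genes tested.

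Setting irradiated 1-SO cells against dark 1-SO cells, 14.8% of all genes passed and again none of the 8. EIF2AK3 came nearest, with 1.77 times the CPM in 1-SO UV-A as in 1-SO dark (counting interval 1.55 to 2.04), a fitted log2 change of 0.70 ± 0.25 and an edgeR adjusted p of 0.0602. In limma-trend on log2(FPKM + 1) the gene was past the threshold. The same ratio of UV-A over dark was 1.03 in the vehicle of that round, and the light response of EIF2AK3 in 1-SO minus that in vehicle was 0.80 ± 0.31 on the log2 scale, with an edgeR adjusted p of 0.153. For this difference of responses 4.37% of all genes passed and 0 of the 8 did. Before scaling by TMM, the median gene itself had a log2 CPM ratio of 0.13 between 1-SO UV-A and 1-SO dark, so the fitted log2 changes lie below the log2 library ratios, and EIF2AK4, at a library ratio of 1.01, had a fitted log2 change of -0.12.

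**Figure D2:**
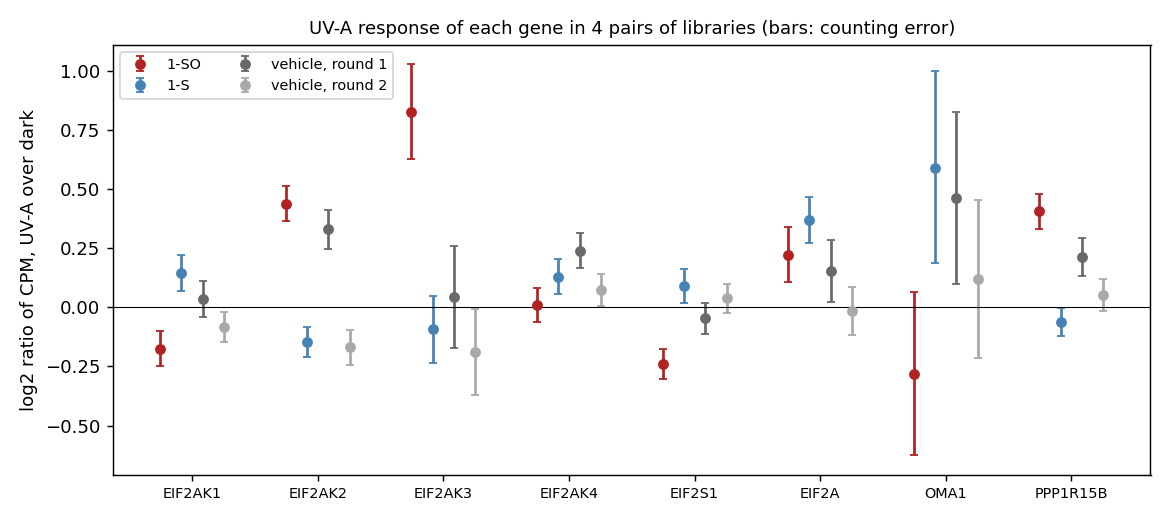
Log2 ratio of CPM, UV-A over dark, for each of the 8 genes in 4 pairs of libraries: 1-SO (red), 1-S (blue), and vehicle of round 1 (dark grey) and round 2 (light grey). Bars are 95% intervals for counting error only. EIF2AK3 in 1-SO stands highest at 0.83, and the ratios are not scaled by TMM.

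Averaged over the 4 matched pairs of UV-A and dark libraries, with the pair as a block, UV-A left none of the 8 past the test, and 0.0% of all genes passed in edgeR, with 581 at an unadjusted p under 0.05 and 0 called by DESeq2. The average log2 change was 0.17 ± 0.20 for OMA1, the largest of the 8, and 0.07 ± 0.090 for EIF2AK4.

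Without light, 1-S called genes of the group in both directions. In 1-S dark against vehicle dark, 4 of the 8 genes passed the test, 3 higher and 1 lower, where 30.9% of all genes passed, 15.9% higher and 15.0% lower. EIF2AK3 rose, with a log2 change of 0.81 ± 0.23 and an edgeR adjusted p of 0.0079. PPP1R15B rose by 0.63 ± 0.18 (edgeR adjusted p = 0.00841) and EIF2AK2 by 0.56 ± 0.18 (edgeR adjusted p = 0.0204). EIF2AK1 fell, with a log2 change of -0.60 ± 0.18 and an edgeR adjusted p of 0.0129. In CPM the ratios of 1-S dark over vehicle dark of the same round were 1.75 (1.58 to 1.96) for EIF2AK3, 1.57 for PPP1R15B, 1.41 (1.35 to 1.48) for EIF2AK2 and 0.675 (0.644 to 0.707) for EIF2AK1. OMA1 was at -0.63 ± 0.36, EIF2S1 at -0.42 ± 0.18, EIF2AK4 at -0.19 ± 0.18 and EIF2A at -0.06 ± 0.18, none of them past the threshold. In DESeq2 0 of the 8 passed, beside 1590 of all 12696 genes tested. In a fit without the round term 0 of the 8 passed, beside 18 of all genes. Without the filter on low values EIF2AK2 was no longer called (0.47, edgeR adjusted p = 0.0795). Without the round 2 vehicle dark library the EIF2AK2 value became 0.87.

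Under UV-A, 1-S against vehicle left 1 of the 8 past the test, against 27.5% of all genes, 13.8% higher and 13.7% lower. EIF2AK3 rose by 0.80 ± 0.23 on the log2 scale (edgeR adjusted p = 0.00962), nearly the same size as in the dark, and DESeq2 and the fit without the round term again did not call it. PPP1R15B had a log2 change of 0.45 ± 0.18 (edgeR adjusted p = 0.0626), EIF2AK1 one of -0.41 ± 0.18 (edgeR adjusted p = 0.0873) and EIF2AK2 one of 0.35 ± 0.19 (edgeR adjusted p = 0.167). The EIF2AK2 value was 0.038 without the round 2 vehicle UV-A library.

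Irradiation of 1-S cells, against 1-S cells in the dark, called none of the 8 and 0.0% of all genes, with 307 genes at an unadjusted p under 0.05 and 0 by DESeq2. OMA1 had the highest value, 0.58 ± 0.39, followed by EIF2A at 0.36 ± 0.20, and the CPM of EIF2A was 92.9 in 1-S UV-A, against 71.9 in 1-S dark. EIF2AK3 was at -0.10 ± 0.24. The light response in 1-S minus that in vehicle was also called for 0 of the 8 and 0.0% of the transcriptome, with 285 at an unadjusted p under 0.05 and 0 by DESeq2, and for EIF2AK3 it was -0.0023 ± 0.30, with an interval of -0.62 to 0.62.

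**Figure D3:**
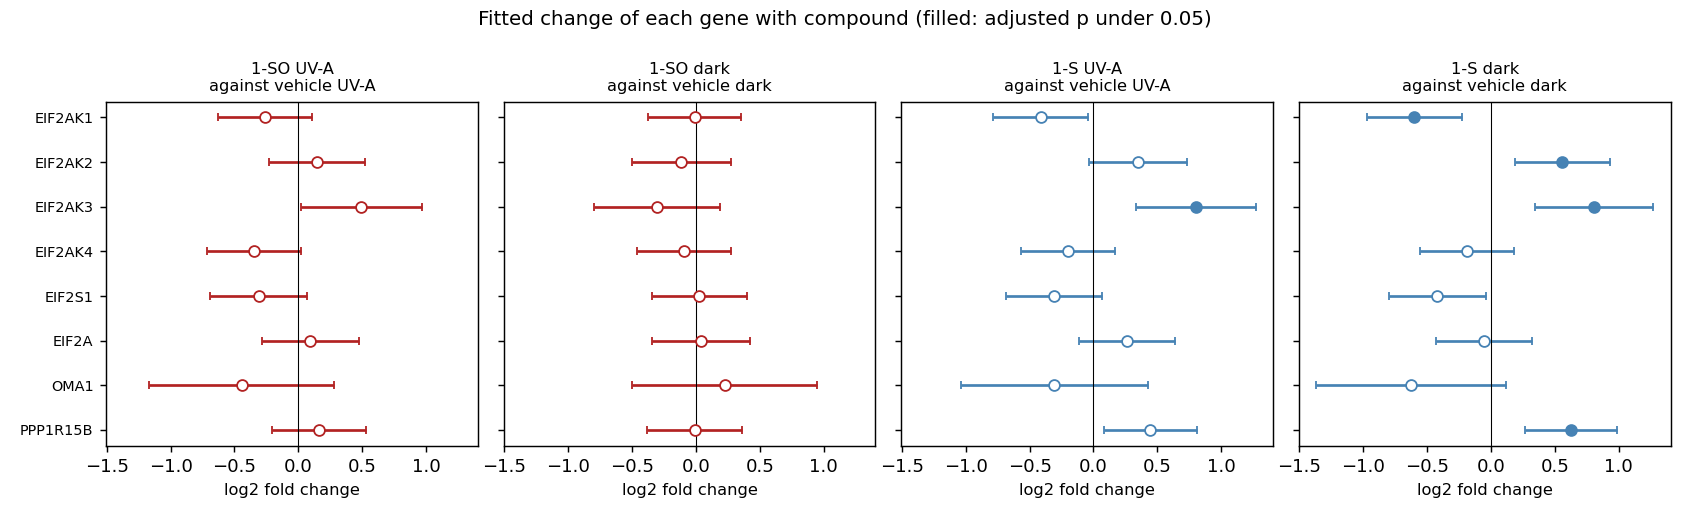
Fitted log2 fold change (horizontal axes) of each of the 8 genes in 4 comparisons of a compound with vehicle under the same light, with 95% intervals from edgeR. Filled points have an adjusted p under 0.05: EIF2AK3 at 0.80 with 1-S under UV-A, and EIF2AK1 at -0.60, EIF2AK2 at 0.56, EIF2AK3 at 0.81 and PPP1R15B at 0.63 with 1-S in the dark.

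Each round was also fitted alone, with the compound averaged over both light conditions so that the spread comes from how the compound's effect differs between UV-A and dark. Such a fit left 1 residual degree of freedom. The spread over all genes lent 12.6 prior ones in round 1 and 138 in round 2. The small p-values of round 2 lean on that pooling over genes, and the compound's dark and UV-A libraries are not replicates of a condition. Within round 2, 6 of the 8 genes passed, where 60.1% of all genes did, 30.0% higher and 30.1% lower, so the share in the group was near that of the transcriptome. EIF2AK3 (log2 change 0.80 ± 0.11), PPP1R15B (0.54 ± 0.087) and EIF2AK2 (0.46 ± 0.086) rose with 1-S, with edgeR adjusted p of 4.07e-10, 3.24e-08 and 1.74e-06. EIF2AK1 (-0.51 ± 0.087), EIF2S1 (-0.36 ± 0.086) and EIF2AK4 (-0.19 ± 0.086) fell, with edgeR adjusted p of 1.57e-07, 0.000124 and 0.0455. DESeq2 and limma-trend did not call EIF2AK4. Within round 1, 1-SO averaged over both light conditions called none of the 8 and 0.0% of all genes in edgeR, with 770 genes at an unadjusted p under 0.05 and 0 by DESeq2. There EIF2AK3 was at 0.10 ± 0.22.

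The compounds were compared at 10 µM in 2 pairings, each relative to vehicle through the round term. In the dark, 1-SO against 1-S called 1 of the 8, against 17.2% of all genes, 8.4% higher and 8.78% lower. EIF2AK3 was lower with 1-SO, by a log2 difference of -1.11 ± 0.31 and an edgeR adjusted p of 0.0129, and it was not called in DESeq2 or without the round term. EIF2AK2 differed by -0.67 ± 0.24 (edgeR adjusted p = 0.0563), PPP1R15B by -0.64 ± 0.24 (edgeR adjusted p = 0.0616) and EIF2AK1 by 0.59 ± 0.23 (edgeR adjusted p = 0.0818). Under UV-A the compounds were not told apart for any of the 8, while 3.55% of all genes passed. The difference for EIF2AK3 was then -0.31 ± 0.30, with an interval of -0.93 to 0.31, and for EIF2S1 it was -0.0030 ± 0.24, with an interval of -0.49 to 0.49. The median absolute difference between the compounds over the 8 genes was 0.61 in the dark and 0.16 under UV-A, beside 0.45 and 0.29 over all genes tested. The compounds were given in different rounds, so a difference between them and one between the rounds' responses cannot be told apart.

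Within a library the 4 kinases can be set beside each other per length, and the shares then depend on the gene lengths used. EIF2AK4 made 35.2% of the kinase sum in vehicle dark of round 1 and 20.1% in vehicle dark of round 2, at 159 and 161 CPM. By CPM, which is not divided by length, EIF2AK2 stood above EIF2AK1 in 1-S dark, at 206 against 133. EIF2AK1 made the largest share of the summed kinase FPKM in all 8 libraries, and EIF2AK3 the smallest. In round 1 EIF2AK3 was 7.66% of the sum in 1-SO UV-A, 4.50% in 1-SO dark, 4.87% in vehicle UV-A and 5.27% in vehicle dark. In round 2 it was 11.3% in 1-S UV-A, 12.3% in 1-S dark, 6.06% in vehicle UV-A and 6.56% in vehicle dark. The ratio of EIF2AK3 to EIF2AK1 mRNA was 0.198 in 1-SO UV-A, against 0.0991 in 1-SO dark, and 0.120 and 0.119 in the round 1 vehicles with UV-A and in the dark. In round 2 this ratio was 0.273 in 1-S UV-A and 0.322 in 1-S dark, against 0.115 in vehicle UV-A and 0.124 in vehicle dark. The sum itself moved little, spanning 81.0 to 91.7 FPKM in round 1 and 62.8 to 66.9 FPKM in round 2.

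**Figure D4:**
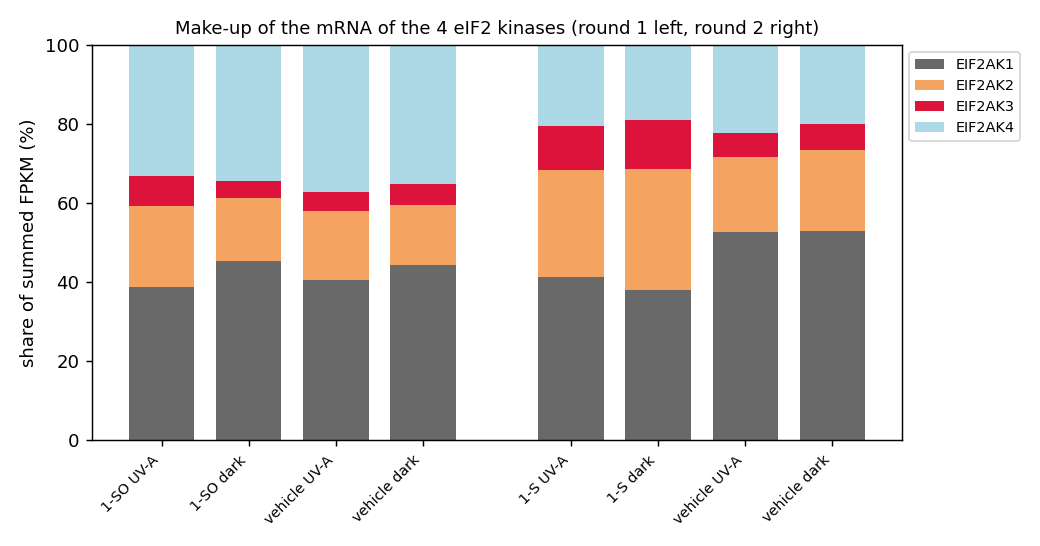
Share of the summed FPKM of the 4 eIF2 kinase genes (vertical axis, percent) taken by each gene in each library, with round 1 left and round 2 right. Shares depend on the gene lengths used, which differed between the rounds. The EIF2AK3 share is 11.3 and 12.3% in the 1-S libraries against 6.06 and 6.56% in the round 2 vehicles, and 7.66% in 1-SO UV-A, against 4.87 and 5.27% in the round 1 vehicles.

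The inducible phosphatase subunit had larger log2 changes than the constitutive one. PPP1R15A encodes GADD34, the stress-induced partner of protein phosphatase 1 that also acts on eIF2 alpha. It was at 356 FPKM in 1-SO UV-A, 72.1 in 1-SO dark, 112 in vehicle UV-A and 74.0 in vehicle dark, and in round 2 at 573 in 1-S UV-A, 546 in 1-S dark, 65.1 in vehicle UV-A and 54.2 in vehicle dark. Its log2 change was 1.65 with 1-SO under UV-A and 3.35 with 1-S in the dark, both past the test. The ratio of PPP1R15A to PPP1R15B mRNA was 10.1 in 1-SO UV-A, against 2.70 in 1-SO dark, 3.70 in vehicle UV-A and 2.83 in vehicle dark. It was 13.4 in 1-S UV-A and 12.2 in 1-S dark, against 2.21 in vehicle UV-A and 1.91 in vehicle dark. The catalytic subunits PPP1CA, PPP1CB and PPP1CC had log2 changes of -0.62, -0.26 and -0.38 with 1-S in the dark, and of them PPP1CA passed the test.

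Around the 8 genes, 33 genes of eIF2, eIF2B, the phosphatase, kinase regulators, the mitochondrial relay and alternative initiation were followed. With 1-SO and UV-A against vehicle and UV-A, 2 of the 33 rose and 1 fell, beside 4.47% higher and 7.04% lower over all genes. With 1-S in the dark 3 rose and 9 fell, beside 15.9% higher and 15.0% lower. With 1-S under UV-A 5 rose and 4 fell, beside 13.8% higher and 13.7% lower. 1-SO in the dark and UV-A in vehicle cells called 0 of the 33 in either direction, as they called 0.0% of all genes. The median log2 change of the 33 was -0.10 with 1-SO under UV-A and -0.27 with 1-S in the dark, against 0.0085 and 0.0028 over all genes tested.

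Among kinase regulators, HSPA5 (BiP), the chaperone that holds EIF2AK3 inactive in the endoplasmic reticulum, rose by 0.94 with 1-SO under UV-A and by 2.32 with 1-S in the dark on the log2 scale. Its level was 1716 FPKM in 1-S dark, against 332 FPKM in vehicle dark of that round. IMPACT, an inhibitor of EIF2AK4 activation, fell with 1-S in the dark by 1.32 on the log2 scale. EIF2B3, a subunit of the exchange factor eIF2B, had a log2 change of -0.76 in both of these comparisons and passed the test in each. EIF5, the GTPase-activating partner of eIF2, rose by 0.70 with 1-S in the dark, and EIF2S3, the gamma subunit of eIF2, fell by 0.65. MCTS1, a factor of alternative initiation, fell by 0.60 in the dark with 1-S, the 1 gene of its list that was called there.

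In the mitochondrial relay 4 of 8 genes fell with 1-S in the dark and none rose, beside 15.0% lower over all genes. With 1-S under UV-A 1 of the 8, SPG7, fell, at a median of -0.21, beside 13.7% lower over all genes. In the dark they were SPG7 (log2 change -0.63) and AFG3L2 (-0.56), subunits of the matrix-facing AAA protease, and the prohibitins PHB1 (-0.55) and PHB2 (-0.55), scaffolds of the inner membrane. DELE1, which carries the signal from OMA1 to EIF2AK1, was at -0.42 with 1-S in the dark and -0.22 with 1-SO under UV-A, neither past the test. Its level was 5.67 FPKM in 1-S UV-A and 5.40 in 1-S dark, against 7.40 in vehicle UV-A and 6.99 in vehicle dark. The median over the 8 genes of this list was -0.48 with 1-S in the dark and -0.22 with 1-SO under UV-A.

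Downstream, a list of 12 genes holds ATF4 and genes that it is known to drive. Its median log2 change was larger than that of the 8 genes with 1-SO under UV-A and with 1-S in the dark. With 1-SO and UV-A 12 of 12 rose, at a median log2 change of 1.91 and beside 4.47% higher over all genes. With 1-S in the dark 11 of 12 rose, beside 15.9% higher over all genes, at a median of 2.81. The lipoprotein receptor VLDLR, at 0.50, was not past the test and lay below EIF2AK3, at 0.81. None of the 12 was called with 1-SO in the dark. ATF4 was at 321 FPKM in 1-SO UV-A, against 145 FPKM in vehicle UV-A, and at 235 FPKM in 1-S dark, against 118 FPKM in vehicle dark. NUPR1 and DDIT3 (CHOP) had the largest log2 changes with 1-S in the dark, 4.23 and 3.58, against 0.81 for EIF2AK3, the largest of the 8 upstream genes. The NUPR1 change rests on a low vehicle level, 7.63 FPKM in 1-S dark against 0.437 FPKM in vehicle dark of that round. Members of this list were chosen with its rise in these libraries already known.

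**Figure D5:**
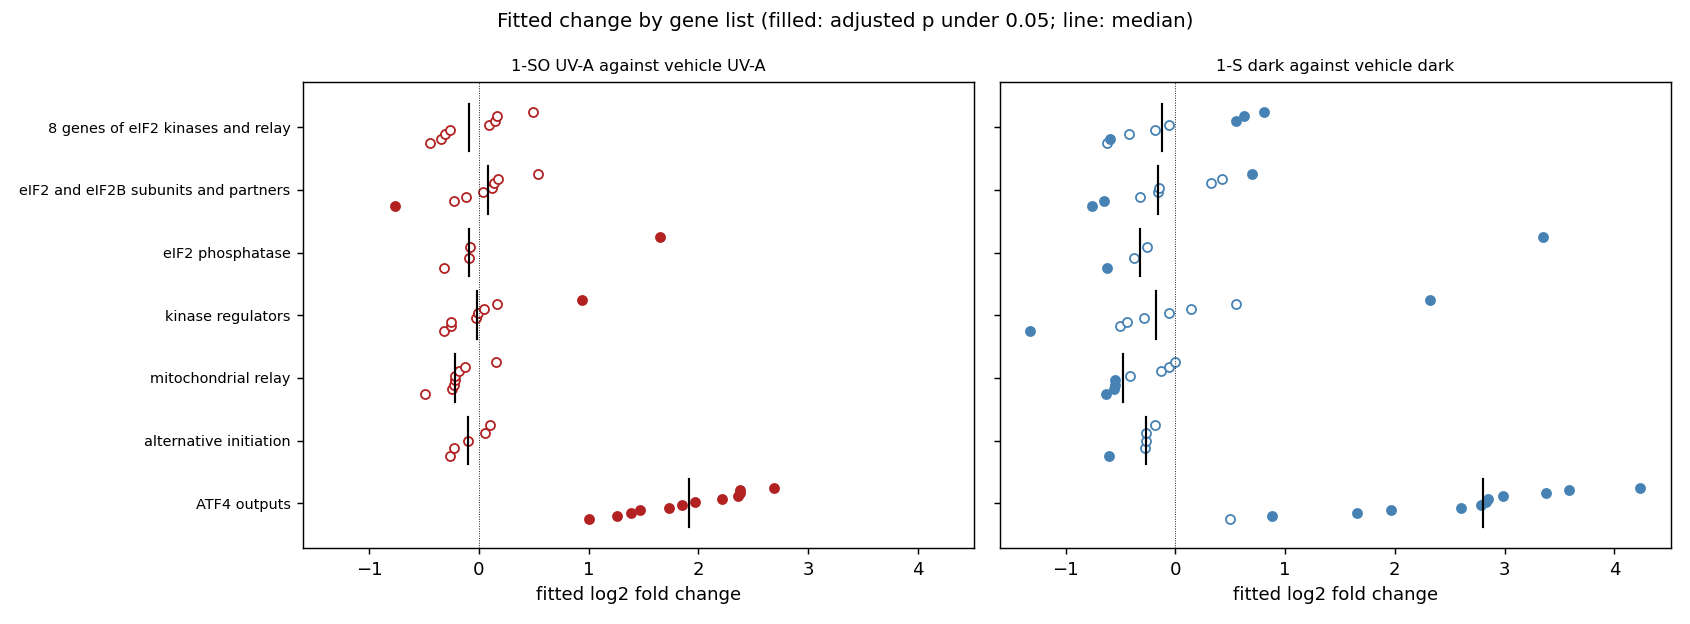
Fitted log2 fold change (horizontal axes) of every gene in the group of 8 and in 6 lists, for 1-SO UV-A against vehicle UV-A (left) and 1-S dark against vehicle dark (right). Filled points have an adjusted p under 0.05 and vertical lines are medians. The ATF4 outputs have medians of 1.91 and 2.81, while the 8 upstream genes lie within 0.81 of 0.

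Over the 8 libraries, log2 CPM centred within each round tied most of the genes to one another. EIF2AK3 and PPP1R15B had r = 0.94, EIF2AK1 and EIF2S1 had r = 0.95, and EIF2AK1 and PPP1R15B had r = -0.98. EIF2A stood apart, with r between -0.38 and 0.38 against the other 7. These 8 points share rounds, libraries and depth, and the coefficients describe them only. The genes most like EIF2AK3 in this measure were ZNF521 (r = 0.998), HOXC9 and MTHFSD. Those most like PPP1R15B were MAST1 (r = 0.999), AKAP17A and KLF5, those most like EIF2AK1 were DUSP6 (r = 0.997), AIFM1 and PPP2R4, and those most like EIF2AK2 were ARHGAP35 (r = 0.998), CLHC1 and KIAA0556.

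In the authors' deposited tables, 9 comparisons of single libraries, 0 of the 8 genes had an adjusted p under 0.05, and the smallest was 0.841. The share of all genes under 0.05 in those comparisons was not counted here, so this 0 shows nothing particular to the 8. For EIF2AK3 the authors' deposited table gives a log2 fold change of 0.78 for 1-S UV-A against vehicle UV-A and of 0.69 for 1-S dark against vehicle dark. Overlapping exons on the opposite strand touch 4 genes besides EIF2AK1. EIF2AK3 shares 781 bases, 14.4% of its exonic length, with AC104134.1, which stayed at or below 0.0322 FPKM in every library, and 38 bases with AC062029.1. EIF2AK2 shares 401 bases with the pseudogene AC007899.1 and 35 bases with GPATCH11, EIF2S1 shares 269 bases with ATP6V1D, and EIF2A shares 153 bases with SERP1. SERP1, a stress-associated endoplasmic reticulum protein gene, was at 56.9 FPKM in 1-SO UV-A, against 31.7 FPKM in vehicle UV-A. Its part in the EIF2A values was not tested. On the same strand, OMA1 shares 257 bases, 6.91% of its exonic length, with DAB1, which stayed at or below 0.0117 FPKM in every library.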

How the data were processed

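Poly-A-selected RNA was sequenced in 8 libraries of 6 groups. The authors' deposited tables give whole read counts per gene and FPKM values, which could be computed again from count, gene length and library total. Their 9 deposited comparison tables give a log2 fold change, a p-value and an adjusted p-value per gene, per the file headers. The submitters' processing notes list HTSeq 0.6.1, STAR 2.5, edgeR 3.16.5, DESeq2 and TopHat with hg19 and hg38, and the role of each was not given in the sources used here. In the tables, 46 further per-sample columns were not used.

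Counts were fitted with edgeR 4.0.16 in R 4.3.3 by the quasi-likelihood test, with TMM factors within each round. Genes with at least 1 FPKM in at least 2 libraries were tested. A single model of 8 libraries was fitted, with a round term, a light term for vehicle and 1 term per compound group. Residual degrees of freedom numbered 1 and prior ones 26, at a biological coefficient of variation of 12.0%. Its spread comes from the vehicle libraries, and a lone compound library is assumed to vary like them. Two-sided p-values were adjusted by Benjamini-Hochberg over all 12696 genes and called at 0.05. Nothing in the labels says that wells were independent cultures, so p-values measure only the spread between these libraries. The rounds pair the vehicle libraries by the labels (passage), and their deviations correlated at r = 0.86. That r was taken over genes, between vehicle dark and vehicle UV-A of round 1, each relative to the mean of both rounds. It measures the offset between rounds. The vehicle light responses of the rounds, which share 1 light term, correlated over genes at r = -0.10.

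Alternatives were median-of-ratios scaling, no filter, no round term, DESeq2 1.42.0, limma-trend 3.58.1 on log2(FPKM + 1) and leaving out libraries or pairs. The script was tested on simulated data. The genes and lists were chosen with earlier results of these data known. All 8 genes are named in each comparison, and of the other lists those called with 1-SO under UV-A or with 1-S in the dark with the largest change, at most 4 per list, plus PPP1R15A, DELE1 and ATF4. PPP1CB, PPP1CC, VLDLR, the markers and SERP1 were named after their values were seen. A gene with 0 reads could be at up to 3 reads, or 0.133 to 0.190 CPM across libraries of 15.8 to 22.6 M reads, counting error only.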

Additional observations from a re-analysis of the deposited data

Results flagged for a closer look

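EIF2AK3 in the dark differed between the compounds. Its log2 change against vehicle was -0.31 with 1-SO and 0.81 with 1-S, and the test of the difference gave -1.11 ± 0.31 (SE) with an edgeR adjusted p of 0.0129. The counts behind it were 301 reads in 1-SO dark, against 378 in vehicle dark of round 1, and 914 in 1-S dark, against 538 in vehicle dark of round 2. Each compound is 1 library, and compound, round and passage cannot be told apart.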

How the results depend on the processing

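Of 928 values of the 8 genes under another setting, 887 kept their direction and their side of the threshold or stayed within the spread, and median-of-ratios scaling changed none. With DESeq2 the number of the 8 called was 0 for 1-S in the dark, 0 for 1-S under UV-A and 0 for 1-SO against 1-S in the dark, and limma-trend called 1 for UV-A in 1-SO cells. The fit with no replicate block, without the round term that pairs the vehicle libraries, also called 0, 0 and 0 in these 3 comparisons. That fit turned EIF2A to -0.18 with 1-SO in the dark, -0.12 with 1-SO and UV-A, 0.13 with 1-S in the dark and -0.30 (1-SO against 1-S, dark), and under UV-A, 1-SO against 1-S, EIF2AK1 to -0.083 and EIF2S1 to 0.19. Limma-trend turned EIF2AK4 to 0.0091 (UV-A in 1-SO), EIF2A to 0.0070 (1-S dark) and EIF2S1 to 0.048 (1-SO against 1-S, UV-A). Without the filter EIF2S1 there was 0.045, and the interaction with 1-S was 0.029 for EIF2AK3 and 0.022 for EIF2AK4. None of these reversed values was past the threshold, and the cause was not tested. Leaving out 1 of the 4 pairs gave -0.13 to 0.012 for EIF2AK1, -0.015 to 0.14 for EIF2AK2, -0.10 to 0.19 for EIF2AK3 and -0.14 to 0.0081 for EIF2S1, and the 1-SO pair decided these signs.

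Counts over all genes moved more. DESeq2 called 481 genes where edgeR called 1461 (1-SO UV-A), 589 where it called 1876 (UV-A in 1-SO), 144 for 555 (interaction), 1590 for 3925 (1-S dark), 1475 for 3487 (1-S UV-A), 635 for 2182 and 135 for 451 (1-SO against 1-S, dark and UV-A). Without the round term the calls were 18 for 1-S in the dark, 15 for 1-S under UV-A and 0 in the other comparisons that had this term or a pair block. Limma-trend called 7 genes for UV-A in vehicle, 2 for 1-SO in the dark and 6 for the interaction with 1-S, where edgeR called 0. The fit with no filter gave 23 for UV-A in vehicle, 3 for UV-A in 1-S, 3 for its interaction, 280 over the 4 pairs and 109 for 1-SO within round 1. Leaving out a vehicle library left no residual degrees of freedom, so only values, not calls, were had. OMA1, at 92 to 156 reads per library, had the largest standard errors of the 8 genes.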
